A study of Saccharomyces cerevisiae with 12 samples.

Results

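Homozygous strains of the budding yeast Saccharomyces cerevisiae derived from an evolved strain were compared with the parental strain after growth on xylose. The comparison used every array titled as a homozygote and every array titled as the parental strain, which gave 10 of the 12 arrays in the series: 8 homozygote arrays, each of a separate strain numbered 1 to 8 and measured once, and 2 parental arrays labelled as biological replicates. The remaining 2 arrays held the evolved strain from which the homozygotes were made. All 3 kinds of strain were grown alike, from an optical density at 660 nm of 0.1 in YPX medium with 4% xylose, shaken at 200 rpm and 35 °C, and collected after 25 h. Expression was read from one-colour Affymetrix arrays hybridised with labelled cRNA, for which 100 ng of total RNA was taken per culture. The strain background, any introduced xylose genes, the ploidy and the mating type are not given in the sources used here, and the groups are known only by these strain names. The design text set the homozygotes against the parental strain to look for transcripts that go with better use of xylose.

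Xylose is a pentose that enters yeast through hexose transporters and is metabolised, once converted to xylulose and phosphorylated by xylulokinase, through the non-oxidative pentose phosphate pathway. Budding yeast makes pyridoxal phosphate (vitamin B6), a cofactor of amino acid enzymes, from sugar phosphates. Thiamine pyrophosphate is a cofactor of transketolase and pyruvate decarboxylase. Methionine synthesis draws on sulfate reduction, which is costly in NADPH, and on methyl groups carried by folate.

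A gene was tested if its signal exceeded background on at least 2 arrays, where signal is the deposited linear intensity and background is the 90th percentile, on the same array, of probe sets for another yeast, S. pombe. Array backgrounds were 18.7 to 19.6, and the median S. cerevisiae gene was 25.3 to 27.8 times brighter than background. Of 5449 genes read by a probe set with a single S. cerevisiae gene, 5352 were tested, of which 81 had systematic names starting YAL or YAR, the left and right arms of chromosome I. The 2 parental arrays stood apart from each other: 2-fold differences numbered 0 to 91 in the 28 pairs of homozygotes, against 102 in the parental pair, and the median log2 distance per gene was 0.0799 to 0.176 in pairs of homozygotes, against 0.222 in the parental pair. The evolved arrays, which enter only the estimate of spread, differed 2-fold in 1 gene. Their median log2 distance was 0.058, smaller than in any pair of homozygotes. The 17 rRNA probe sets averaged between 11.56 and 11.89 on the log2 scale in the homozygotes, against 11.99 and 12.01 in the parental arrays, so they moved with the groups, and their part in the results was not tested. The 3' to 5' ratio of control transcripts overlapped, at 0.97 to 1.16 (log2) in homozygotes and 1.05 and 1.08 in parental arrays.

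All 8 homozygotes lay on one side of both parental arrays in 1672 genes (31.2% of all tested genes). They lay above both in 669 genes (12.5%) and below both in 1003 (18.7%). Leaving out YAL and YAR names, the count was 1604 of 5271 (30.4%), with 667 higher (12.7%) and 937 lower (17.8%). Of the 81 YAL and YAR names, 68 did not overlap (84%), of which 2 were higher (2.47%) and 66 lower (81.5%). Most of these separations were small. The median gap, the log2 distance between the nearest homozygote and the nearest parental array, was 0.113 for the higher genes, with a median fold of 1.32, and 0.148 for the lower ones, with a median fold of 1.33. Genes with a gap of at least 0.5 numbered 62 higher and 90 lower, and 45 of the 90 had YAL or YAR names. A gap of at least 1 was found in 17 higher and 10 lower genes, and 5 of the 10 had YAL names. In 296 higher and 532 lower genes the gap was at least as wide as the distance between the 2 parental arrays.

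**Figure D1:**
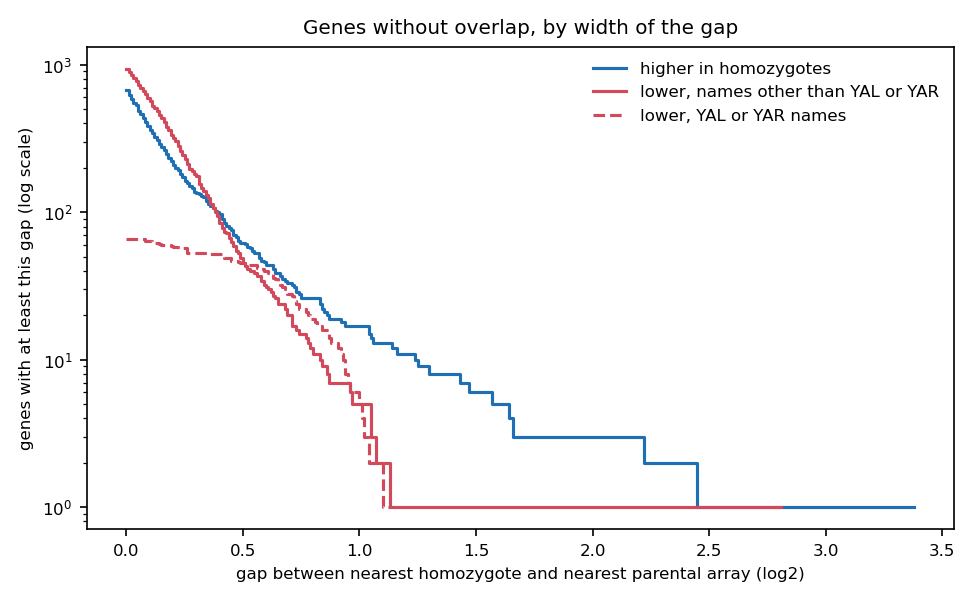
Number of genes without overlap (y axis, log scale) whose gap between the nearest homozygote and the nearest parental array is at least the value on the x axis (log2), for genes higher in the homozygotes, lower with names other than YAL or YAR, and lower with YAL or YAR names. The curve of the lower YAL and YAR genes, 66 in all, is at 45 genes for a gap of 0.5. It falls to 5 for a gap of 1 and ends at 1.12. In the other curves 1 lower gene (STL1) and 3 higher genes (SNO1, SNZ1 and YPS6) reach gaps above 2.

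Limma called 1669 genes (31.2%) at a Benjamini-Hochberg adjusted p under 0.05, 708 higher (13.2%) and 961 lower (18%) in the homozygotes. Of the genes without overlap, 567 higher (10.6%) and 848 lower (15.8%) were called, and 257 were not; 254 called genes overlapped. Without YAL and YAR names 705 were called higher (13.4%) and 895 lower (17%), and among these names 69 were called (85.2%), 3 higher (3.7%) and 66 lower (81.5%). The separation and the limma test read the same values, so neither is independent evidence for the other. The lean towards lower genes depended on scaling: with each array centred on its median, 849 were called higher and 823 lower, and 806 and 860 did not overlap. Limma was also run with a weight estimated for each group (0.981 for homozygotes, 0.293 for parental arrays and 3.69 for evolved arrays). With these group weights it called 151 higher and 174 lower, all 325 of them among the 1669. The number of calls thus depends on how the distance between the parental arrays is weighed.

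Genes of vitamin B6 synthesis were far higher in the homozygotes, and 1 of them had the widest gap of all tested genes. SNO1 (YMR095C) and SNZ1 (YMR096W), neighbours on chromosome XIII, encode the glutaminase and synthase subunits of the enzyme that makes pyridoxal phosphate. SNO1 had signals of 811, 1131 and 1347 in the homozygotes (lowest, median and highest), against 48.8 and 78.3 in the parental arrays. Every homozygote was thus more than 3 log2 units above the brighter parental array, with a gap of 3.37 and a log2 change of 4.11 ± 0.20 (SE, limma adjusted p = 6.1e-08). SNZ1 had 4564, 5127 and 5510 in the homozygotes, against 352 and 836 in the parental arrays (log2 change 3.22 ± 0.20, limma adjusted p = 4.8e-07). The parental arrays differed more from each other for SNZ1 than the homozygotes did, and the gap was 2.45. In the evolved strain, which is set against the same parental arrays, SNO1 was at 1379 and 1257 and SNZ1 at 4987 and 4880. In bulk RNA a change in every cell and a change in some of the cells cannot be told apart.

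In the vitamin B6 list 5 of 7 tested genes were higher without overlap, all of them called, 2 overlapped and 0 were lower, with a median log2 change of 1.41 against -0.04 for all tested genes. TPN1, the pyridoxine transporter, had 1358, 1615 and 1742 in the homozygotes, against 761 and 873 in the parental arrays (log2 change 0.96 ± 0.09, limma adjusted p = 6.3e-06). SNO3 had 292, 485 and 548 in the homozygotes, against 148 and 190 in the parental arrays (1.41 ± 0.20), from a probe set shared with a close relative, so the gene itself is uncertain. The groups did not overlap for either gene. Homozygote 8 was the lowest for TPN1 and SNO3, and its median over the list, 0.80 above the parental mean, was the lowest of the 8 homozygotes, which reached 1.71. All 5 calls held with group weights.

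Thiamine genes followed, with a wider spread between the homozygotes. THI13 (YDL244W), which makes the pyrimidine part of thiamine and is read by a probe set shared with its near-identical relatives, had 2237, 3455 and 4356 in the homozygotes, against 702 and 710 in the parental arrays. The groups lay 1.66 apart, with a log2 change of 2.23 ± 0.19 (SE, limma adjusted p = 5.0e-06). THI4 (YGR144W), the suicide enzyme that makes the thiazole part, had 902, 2817 and 3534 in the homozygotes, against 326 and 163 in the parental arrays (3.38 ± 0.42, limma adjusted p = 8.5e-05). The homozygotes spanned almost 4-fold for THI4, yet the lowest was still 1.47 (log2) above the brighter parental array.

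Of 16 tested thiamine genes 7 were higher without overlap and 0 lower, all 7 called, and the median log2 change was 0.39. The others included THI6, which joins the 2 parts of thiamine (0.78 ± 0.11), and PET18, of the same regulon (1.03 ± 0.16). The list median depended on the parental array: it was 0.65 against parental array 2 alone and 0.23 against parental array 1 alone. By homozygote it ranged between 0.28 and 0.60. Biotin genes did not share this pattern. Of 6 tested, BIO2, biotin synthase, was higher (0.48 ± 0.11), a call lost without parental array 1, and VHT1, the biotin transporter, was lower (-0.45 ± 0.09).

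Of the 17 higher genes with a gap of at least 1, several belonged to sulfur assimilation. MET6 (YER091C), the methionine synthase, had 3010, 3464 and 4171 in the homozygotes, against 904 and 972 in the parental arrays. Its gap was 1.63 and its log2 change 1.88 ± 0.10 (SE, limma adjusted p = 6.1e-08). MET2 (YNL277W), homoserine acetyltransferase, had 939, 1126 and 1428 in the homozygotes, against 262 and 317 in the parental arrays (1.97 ± 0.14, limma adjusted p = 1.9e-06). MET3 (YJR010W), the ATP sulfurylase that activates sulfate, had 1371, 1766 and 2223 in the homozygotes, against 499.9 and 580.5 in the parental arrays (1.74 ± 0.14, limma adjusted p = 4.4e-06). For these 3 genes the parental arrays were close to each other and every homozygote was more than 2-fold brighter. MET32 (YDR253C), a zinc-finger activator of the sulfur genes, had 240, 331 and 472 in the homozygotes, against 86.3 and 89.6 in the parental arrays (1.92 ± 0.20, limma adjusted p = 2.5e-05).

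Sulfate uptake and reduction had 8 of 10 tested genes higher without overlap, all called, 0 lower and a median log2 change of 1.03; 7 were called with group weights. SUL2, the sulfate permease, had 359, 459 and 600 in the homozygotes, against 141 and 164 in the parental arrays. MET10, a sulfite reductase subunit, had 667, 897 and 1015 in the homozygotes, against 265 and 324 in the parental arrays. MET1, of sirohaem synthesis, had 820, 865 and 1079 in the homozygotes, against 431 and 462 in the parental arrays. The groups did not overlap in these genes, whose log2 changes were 1.62 ± 0.16, 1.57 ± 0.14 and 1.02 ± 0.11. By homozygote the list median ran from 0.84 in homozygote 2 to 1.48 in homozygote 7.

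Genes of methionine, cysteine and S-adenosylmethionine (SAM) synthesis moved in both directions. Of 20 tested, 12 were higher and 4 lower without overlap, and all 16 were called. The median log2 change was 0.21. STR3, a cystathionine beta-lyase, had 427, 721 and 1847 in the homozygotes, against 100 and 206 in the parental arrays, the widest spread between homozygotes among these genes. SAM2, a SAM synthetase, had 2551, 2751 and 3206 in the homozygotes, against 911 and 1352 in the parental arrays (1.35 ± 0.12). The 4 lower genes, named here for their direction, were SAM4, CYS3, HOM3 and MET7. SAM4 (YPL273W), which recycles homocysteine with SAM as methyl donor, had 145, 170 and 199 in the homozygotes, against 359 and 440 in the parental arrays (-1.23 ± 0.13, limma adjusted p = 2.6e-05). CYS3, cystathionine gamma-lyase and the list's only YAL or YAR gene among the falls, changed by -0.44 ± 0.10, HOM3, aspartate kinase, by -0.40 ± 0.12, and MET7, folylpolyglutamate synthetase, by -0.36 ± 0.12.

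Sulfur regulators and transporters of sulfur compounds had 11 of 19 tested genes higher without overlap, all called, 0 lower and a median log2 change of 0.48, or 0.30 without parental array 1; 7 were called with group weights. YCT1, a cysteine transporter, had 547, 926 and 1205 in the homozygotes, against 108 and 267 in the parental arrays (2.37 ± 0.33). MMP1, the S-methylmethionine permease, changed by 1.33 ± 0.21 and MUP1, the high-affinity methionine permease, by 1.22 ± 0.16. Homozygote 2 was the lowest of the 8 for SUL2, MET10, SAM2 and YCT1, and still above both parental arrays.

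GCV2 (YMR189W), the glycine decarboxylase subunit that feeds one-carbon units into folate, had 1691, 1886 and 2108 in the homozygotes, against 719 and 702 in the parental arrays. The parental arrays were within a few percent of each other and the log2 change was 1.40 ± 0.08 (SE, limma adjusted p = 1.1e-07). A list of glycine cleavage and one-carbon genes, drawn up after these values were seen and so given as a description, had 7 of 12 tested genes higher without overlap, 0 lower and a median of 0.33. Against parental array 2 alone the median was 0.15 and 1 gene was called lower. GCV1, another subunit of the same complex, changed by 1.17 ± 0.13, MET13, which makes methyl-folate, by 0.77 ± 0.11, and SHM2, cytosolic serine hydroxymethyltransferase, by 0.75 ± 0.10 (0.47 against parental array 2 alone).

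BNA2 (YJR078W), the dioxygenase that starts NAD synthesis from tryptophan, had 1578, 1949 and 2252 in the homozygotes, against 237 and 643 in the parental arrays. The groups were 1.30 apart (log2 change 2.33 ± 0.24, limma adjusted p = 2.1e-05), but the parental arrays differed by more than that: set against parental array 2 alone the change was 1.61, and against parental array 1 alone 3.05. Of 14 tested NAD genes 6 were higher, all called, and 3 lower, 2 of them called. BNA6, of the same route (0.86 ± 0.11), and BNA3, also on the list (0.86 ± 0.14), rose, and NRK1, nicotinamide riboside kinase, fell by 0.51 ± 0.10. The list median was 0.28, which was 0.08 without parental array 1 and 0.51 without the other.

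Purine synthesis had 6 of 12 tested genes higher and 1 lower without overlap, all called, with a median of 0.35 (0.17 without parental array 1 and 0.58 without the other). ADE17, of the last steps of inosine monophosphate synthesis, had 3922, 4627 and 4982 in the homozygotes, against 1719 and 3567 in the parental arrays (0.86 ± 0.18). ADE3, which makes the folate cofactors of that route, changed by 0.47 ± 0.07 and ADE13, adenylosuccinate lyase, by 0.60 ± 0.11. Parental array 1 was the dimmer one for ADE17, ADE13 and ADE12, and parental array 2 lay close below the homozygotes. Against parental array 2 alone the changes were 0.33 for ADE17, 0.30 for ADE3, 0.29 for ADE13 and 0.17 for ADE12, and that of ADE12 was not called.

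**Figure D2:**
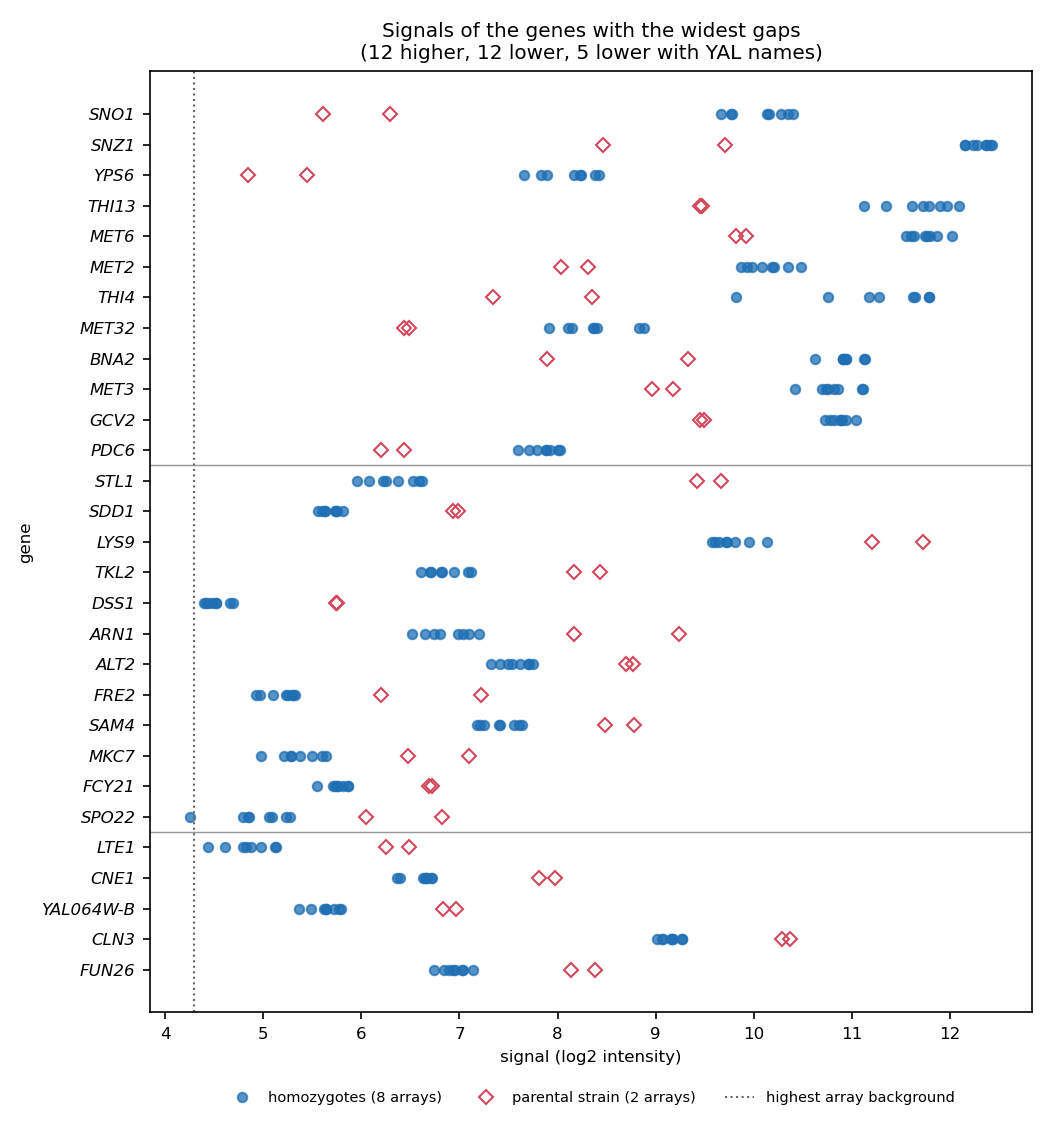
Signals (log2 intensity, x axis) of the 12 higher and 12 lower genes with the widest gaps outside YAL and YAR names and of the 5 lower YAL genes with the widest gaps (y axis). Filled circles are the 8 homozygotes, open diamonds the 2 parental arrays, and the dotted line the highest array background; the groups are apart in every row, and SPO22 and DSS1 lie close to background.

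Among the other amino acid lists, lysine, aromatic and histidine genes separated only downward. LYS9 (YNR050C), saccharopine dehydrogenase of lysine synthesis, had 764, 843 and 1125 in the homozygotes, against 2357 and 3377 in the parental arrays. Its gap was 1.07 and its log2 change -1.69 ± 0.15 (SE, limma adjusted p = 5.1e-06). Of 9 tested lysine genes 5 were lower without overlap, all called, and 0 higher. LYS20, the homocitrate synthase at the head of the pathway, changed by -1.04 ± 0.17, LYS1 by -1.04 ± 0.19 and LYS12 by -0.81 ± 0.15. Parental array 2 was the brighter one for LYS9, LYS20, LYS1 and LYS12, and the list median of -0.55 became -0.31 without it, with LYS1 at -0.58 and LYS12 at -0.39.

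Arginine genes had 4 higher and 4 lower of 10 tested, all 8 called. ARG3, ornithine carbamoyltransferase, had 498, 992 and 1253 in the homozygotes, against 249 and 261 in the parental arrays (1.86 ± 0.25), and ARG1, argininosuccinate synthetase, changed by 1.21 ± 0.17. CAR1, the arginase that degrades arginine, had 1772, 2602 and 2899 in the homozygotes, against 4173 and 5727 in the parental arrays (-0.998 ± 0.16), and ARG2, at the start of synthesis, changed by -0.73 ± 0.11. The list thus held both directions, whose median was -0.22, and 0.00 in size without parental array 2.

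Branched-chain genes had 3 higher and 2 lower of 12 tested without overlap, and their median of 0.15 was -0.07 against parental array 2 alone and 0.33 against parental array 1 alone. LEU1, isopropylmalate isomerase, rose by 1.27 ± 0.17 and LEU2 by 0.91 ± 0.15, while LEU3, their activator, fell by 0.74 ± 0.11 and LEU9 by 0.46 ± 0.11. Aromatic synthesis had 4 of 15 lower and 0 higher, with ARO2, chorismate synthase, at -0.49 ± 0.10. Histidine synthesis had 2 of 7 lower and 0 higher, HIS1 at -0.51 ± 0.11 and HIS6 at -0.39 ± 0.13. The aromatic and histidine shares without overlap were near the 31.2% of all tested genes, and group weights left 0 of either list called. ARO2 (-0.27) and HIS1 (-0.35) were not called without parental array 2, nor HIS6 (-0.25) without parental array 1. ALT2 (YDR111C), a paralogue of alanine transaminase, had 160, 190 and 215 in the homozygotes, against 416 and 437 in the parental arrays, without overlap (-1.17 ± 0.11, limma adjusted p = 6.3e-06).

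Many iron uptake genes were lower, most of those for siderophores among them. ARN1 (YHL040C), a siderophore transporter, had 91.8, 119 and 147 in the homozygotes, against 606 and 287 in the parental arrays. All homozygotes were below both, with a gap of 0.96, and the change of -1.83 ± 0.22 (SE, limma adjusted p = 7.5e-05) was -1.29 against parental array 2 alone and -2.36 against parental array 1 alone. FRE2 (YKL220C), a ferric reductase, had 30.5, 37.9 and 40.1 in the homozygotes, against 149 and 73.3 in the parental arrays (-1.53 ± 0.20, limma adjusted p = 0.00014).

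Of 8 siderophore uptake genes 6 were lower without overlap, all called, and 0 higher, with a median of -1.31, or -0.74 without parental array 1. SIT1 had 239, 535 and 897 in the homozygotes, against 1912 and 1447 in the parental arrays, and the cell wall mannoprotein gene FIT2 had 422, 1002 and 1966 in the homozygotes, against 3457 and 2587 in the parental arrays. FIT2 was not called without parental array 1. Homozygote 8 was lowest and homozygote 6 highest for both genes, and homozygote 6 also had the list median nearest to the parental strain (-0.75, against -1.57 in homozygote 8). Reductive iron uptake and its regulators had 9 of 22 lower and 1 higher without overlap, the 9 called and the 1 not, and 12 overlapped. FTR1, the iron permease, had 950, 1045 and 1331 in the homozygotes, against 2271 and 2209 in the parental arrays (-1.05 ± 0.11), and FET3, its multicopper oxidase partner, had 868, 1241 and 1598 in the homozygotes, against 3040 and 2351 in the parental arrays (-1.15 ± 0.21). FRE5 lay under the background in all homozygotes, at 12.3 to 17.6, against 48.9 and 30.6 in the parental arrays. Group weights left 3 of the siderophore genes and 6 of the reductive genes called.

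The zinc list had 2 of 14 lower without overlap, ZRG17 (-0.59 ± 0.13) and ZRT1, the high-affinity zinc transporter (-0.36 ± 0.09), and 0 were called with group weights or without parental array 1. Of 18 phosphate genes 9 were higher and 1 lower without overlap, all called, with a median of 0.37, or 0.21 without parental array 2. SPL2, a small regulator of phosphate uptake, had 425, 542 and 886 in the homozygotes, against 254 and 160 in the parental arrays (1.47 ± 0.22). PHO84, the high-affinity transporter, had 1534, 2210 and 3203 in the homozygotes, against 1186 and 459 in the parental arrays (1.54 ± 0.28, or 0.86 without parental array 2), and PHO5, the secreted acid phosphatase, changed by 1.12 ± 0.21. Homozygote 2 was the lowest for SPL2, PHO84 and PHO5, and 3 of the 9 were called with group weights.

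**Figure D3:**
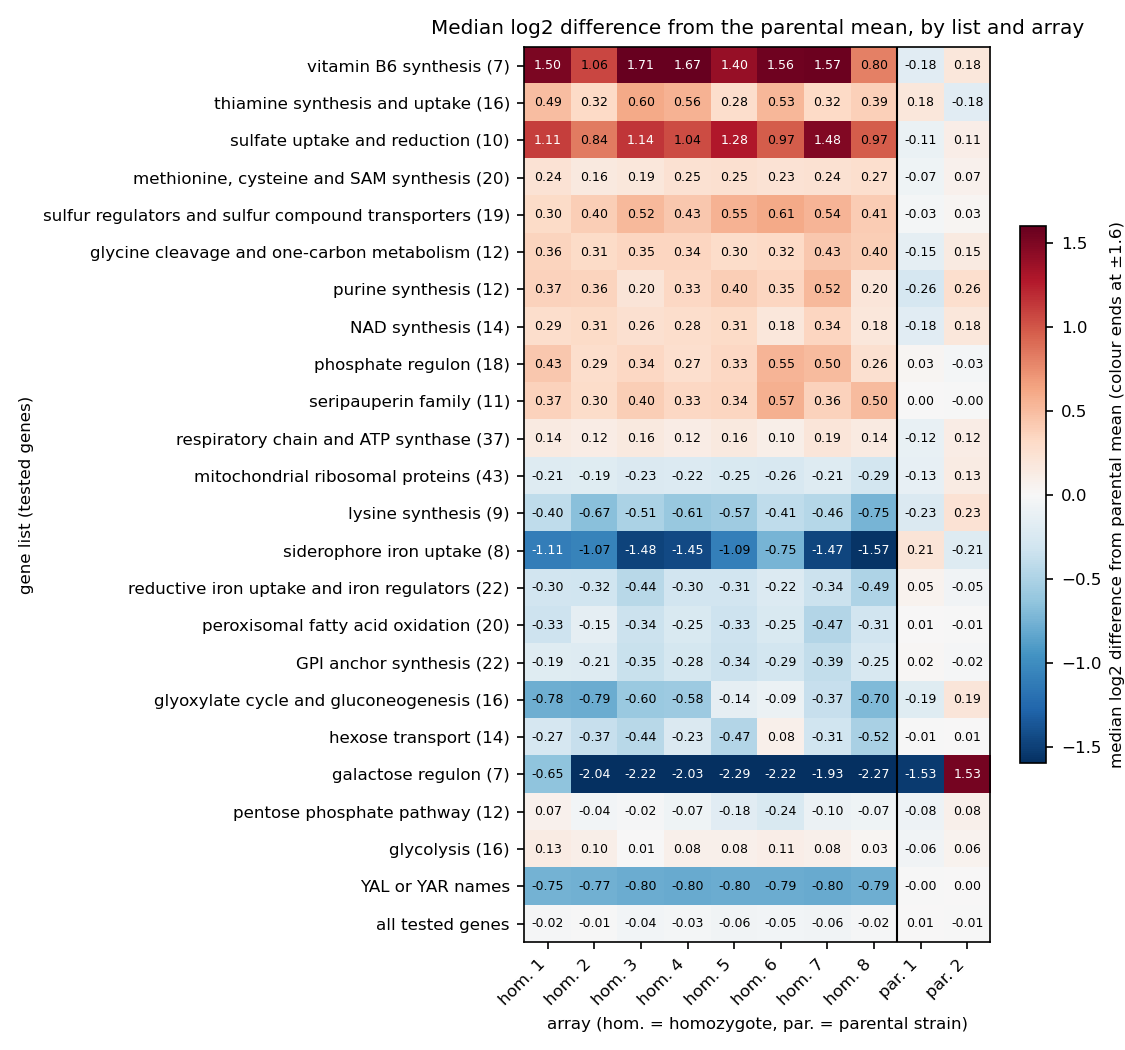
Median log2 difference from the parental mean over the tested genes of a list (rows, number of tested genes in brackets) in each homozygote and each parental array (columns), with red above and blue below the parental mean. Vitamin B6 and sulfate lists are at 0.80 or more in all 8 homozygotes, siderophore uptake is at or below -0.75, and the galactose list is at -1.53 and 1.53 in the parental arrays.

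STL1 (YDR536W), the glycerol proton symporter of the plasma membrane, fell more than any other tested gene. It had 62.0, 79.5 and 98.5 in the homozygotes, against 812 and 687 in the parental arrays. The gap was 2.80, and the log2 change of -3.22 ± 0.16 (SE, limma adjusted p = 6.1e-08) was close to that against each parental array alone (-3.10 and -3.34). In the evolved strain, against the same parental arrays, STL1 was at 106 and 91.2. The other glycerol genes moved much less: 5 of 13 tested were lower without overlap, 4 of them called, and 0 higher, with a median of -0.17. GUP1, a membrane protein linked to glycerol uptake, changed by -0.55 ± 0.10, GPP2, a glycerol phosphatase, by -0.41 ± 0.07 and DAK1, dihydroxyacetone kinase, by -0.25 ± 0.08 (-0.12 and not called without parental array 2).

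Of 8 genes of xylose and polyol metabolism 7 overlapped. XKS1, xylulokinase, had 2951, 3703 and 4130 in the homozygotes, against 3334 and 3816 in the parental arrays, and the groups overlapped fully (log2 change 0.01 ± 0.11, limma adjusted p = 0.98). GRE3, the aldose reductase that can turn xylose into xylitol, had 1135, 1227 and 1525 in the homozygotes, against 1466 and 1864 in the parental arrays (-0.38 ± 0.11, limma adjusted p = 0.022). At least 1 homozygote exceeded parental array 1, so GRE3 was called but overlapped, and without parental array 2 it was at -0.21 and not called. SOR2, a sorbitol dehydrogenase with a near-identical copy on the same probe set, was the only one without overlap, at 4340, 5012 and 5565 in the homozygotes, against 1822 and 2609 in the parental arrays (1.21 ± 0.11).

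In the pentose phosphate pathway 2 of 12 tested genes were higher and 2 lower without overlap, all called, a share near the 31.2% of all tested genes. TKL2 (YBR117C), the minor transketolase, had 97.8, 113 and 139 in the homozygotes, against 346 and 288 in the parental arrays, a gap of 1.05 (-1.45 ± 0.14, limma adjusted p = 8.0e-06). TKL1, the major transketolase, was much brighter and overlapped, at 4606, 4887 and 5253 in the homozygotes, against 5125 and 5242 in the parental arrays (-0.09 ± 0.05). TAL1, transaldolase, had 7614, 7774 and 8181 in the homozygotes, against 6597 and 6275 in the parental arrays (0.28 ± 0.03, limma adjusted p = 7.8e-05). The rise of TAL1 was small and without overlap, and compression of such bright signals was not tested. GND2, the minor 6-phosphogluconate dehydrogenase, changed by 0.41 ± 0.09 and RKI1, ribose-5-phosphate isomerase, by -0.32 ± 0.10, both calls lost without parental array 1. ZWF1 was called (0.28 ± 0.10, limma adjusted p = 0.041) but overlapped, and was at 0.09 and not called without that array, and GND1 was not called (0.06 ± 0.09).

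Hexose transporter genes changed in both directions, 3 of 14 tested higher and 5 lower without overlap, all 8 called, with a median of -0.38. Without parental array 1 the median was -0.24, and without parental array 2 it was -0.20 with 2 genes called lower. HXT7, the brightest, read by a probe set shared with a close relative, had 2241, 2832 and 3409 in the homozygotes, against 2681 and 2743 in the parental arrays, and overlapped. HXT4 had 892, 1311 and 1810 in the homozygotes, against 1897 and 2670 in the parental arrays (-0.85 ± 0.23, limma adjusted p = 0.013), a call lost without parental array 2 (-0.60, limma adjusted p = 0.14). HXT5, a transporter of slow-growing cells, had 123, 175 and 278 in the homozygotes, against 509 and 365 in the parental arrays (-1.29 ± 0.23). HXT2 had 126, 260 and 454 in the homozygotes, against 506 and 509 in the parental arrays (-1.08 ± 0.34), a call lost without either parental array. Homozygote 6 was the highest of the 8 for HXT4, HXT5 and HXT2, and its list median, 0.08, was the only one above the parental mean. HXT15, on a shared probe set, was higher, at 561, 662 and 777 in the homozygotes, against 443 and 238 in the parental arrays (1.03 ± 0.18, or 0.58 without parental array 2). With group weights 1 transporter was called higher and 1 lower.

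Galactose genes show how a call can rest on 1 parental array. GAL7 had 68.2, 98.9 and 192 in the homozygotes, against 184 and 1540 in the parental arrays, GAL10 had 48.8, 56.5 and 220 in the homozygotes, against 78.0 and 1289 in the parental arrays, and GAL2 had 103, 109 and 179 in the homozygotes, against 157 and 1779 in the parental arrays. Limma called all 3 lower, but the highest homozygote, number 1 in each case, exceeded parental array 1. Only GAL3, the galactose sensor, was without overlap among 7 tested (-0.91 ± 0.17, or -0.59 without parental array 2). The calls of GAL7, GAL10 and GAL2 were lost without parental array 2, at -0.83, -0.23 and -0.43. The list median was -1.96, and -0.23 without parental array 2.

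In glycolysis 4 of 16 genes were higher and 1 lower without overlap, a share near the 31.2% of all tested genes. HXK2, the main hexokinase, had 1250, 1617 and 1711 in the homozygotes, against 2560 and 3492 in the parental arrays (-0.95 ± 0.13), whereas TDH1 (0.15 ± 0.04), FBA1 (0.14 ± 0.03) and ENO1 (0.13 ± 0.03) rose slightly among the brightest signals, and FBA1 and ENO1 (0.09) lost the call without parental array 1. PDC6 (YGR087C), a minor pyruvate decarboxylase known for its induction when sulfur is short, had 193, 236 and 260 in the homozygotes, against 86.3 and 73.6 in the parental arrays, without overlap (1.53 ± 0.11, limma adjusted p = 2.1e-06). It was the only higher gene without overlap among 11 of fermentation, with SFA1 the only lower one (-0.23 ± 0.07, a call lost without parental array 1).

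The glyoxylate and gluconeogenesis list had 2 of 16 higher and 4 lower, all called, and its median of -0.50 was -0.16 without parental array 2. Among the lower was YAT1 (YAR035W, -1.25 ± 0.10), on chromosome I, the only gene of the list called with group weights. Without it the list had 2 of 15 higher and 3 lower. ICL1, isocitrate lyase, had 356, 513 and 1308 in the homozygotes, against 1499 and 1956 in the parental arrays (-1.52 ± 0.41), a wide spread between homozygotes. Its list median ran from -0.79 in homozygote 2 to -0.09 in homozygote 6. CAT8, an activator of these genes, was higher (0.61 ± 0.15) and SIP4, another, was lower (-0.82 ± 0.21), and the calls of ICL1, CAT8 and SIP4 were lost without parental array 2. In acetate metabolism 2 of 11 were higher and 3 lower, with ALD3, an aldehyde dehydrogenase, at -0.90 ± 0.16 and ACS1, acetyl-CoA synthetase, at -0.37 ± 0.08, a call lost without parental array 1, where the list median of 0.19 became -0.10. ACS1 (YAL054C) lies on chromosome I, and without it the acetate list had 2 of 10 higher and 2 lower. The tricarboxylic acid cycle had 2 of 19 higher, with PYC2 at 0.33 ± 0.07, and 1 lower. Its median of 0.16 was -0.06 against parental array 2 alone and 0.33 against parental array 1 alone.

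Respiratory chain and ATP synthase genes leaned upward and genes named MRPL or MRPS, mitochondrial ribosomal proteins, downward. Of 37 respiratory genes 14 were higher and 0 lower without overlap, 11 of them called. QCR10, of complex III, had 3080, 3464 and 4037 in the homozygotes, against 2697 and 2645 in the parental arrays (0.38 ± 0.08), and COX7, of complex IV, changed by 0.48 ± 0.08 (0.29 against parental array 2 alone). Their list median was 0.14, or 0.05 without parental array 1 and 0.29 without the other, and group weights left 3 called. Of 43 mitochondrial ribosomal genes 18 were lower, 17 of them called, and 3 higher, with a median of -0.25. Without parental array 2 that median was -0.13 and 11 were called lower, against 21 with all arrays, and group weights left 5. MRPL20 had 381, 450 and 507 in the homozygotes, against 666 and 868 in the parental arrays (-0.78 ± 0.12), and MRPS5 changed by -0.61 ± 0.10. All 8 homozygotes had medians between -0.29 and -0.19 for this list. DSS1 (YMR287C), the exoribonuclease of the mitochondrial degradosome, had 21.0, 22.6 and 25.8 in the homozygotes, against 54.0 and 53.4 in the parental arrays (-1.23 ± 0.11, limma adjusted p = 5.5e-06); the homozygote signals were just above background, so the size of the fall is uncertain.

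Cell surface genes gave one of the widest rises. YPS6 (YIR039C), a yapsin, a GPI-anchored aspartic protease of the cell surface, had 201, 293 and 344 in the homozygotes, against 28.7 and 43.5 in the parental arrays. The gap was 2.21 and the change 2.96 ± 0.19 (SE, limma adjusted p = 6.2e-07). MKC7 (YDR144C), another yapsin, went the other way, with 31.4, 40.2 and 50.0 in the homozygotes, against 136 and 89.2 in the parental arrays (-1.43 ± 0.18, limma adjusted p = 7.8e-05). Of 18 yapsin and cell wall genes 6 were higher and 1 lower without overlap, all called, and the list median of 0.29 was 0.06 against parental array 2 alone and 0.51 against parental array 1 alone. Among them was PIR1, a covalently bound wall protein, at 0.44 ± 0.06. A list of GPI anchor synthesis genes, drawn up after these values were seen and so given as a description, had 10 of 22 lower and 1 higher without overlap. MCD4, a phosphoethanolamine transferase of the anchor, had 147, 192 and 265 in the homozygotes, against 590 and 434 in the parental arrays (-1.37 ± 0.21), and GPI10, a mannosyltransferase, had 64.4, 77.4 and 108 in the homozygotes, against 167 and 231 in the parental arrays (-1.33 ± 0.16).

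Among chaperones the 4 cytosolic Hsp70 genes of the SSA family were lower without overlap, and these were the only separated genes of 16 in the Hsp70, Hsp90 and disaggregase list. SSA1 had 1950, 2089 and 2244 in the homozygotes, against 3885 and 3045 in the parental arrays (-0.72 ± 0.08), and its name, YAL005C, places it on chromosome I. SSA2 had 1171, 1409 and 1812 in the homozygotes, against 3787 and 2567 in the parental arrays (-1.10 ± 0.15). SSA4, the heat-inducible member, had 323, 391 and 501 in the homozygotes, against 1983 and 675 in the parental arrays (-1.54 ± 0.27), which was -0.76 against parental array 2 alone and -2.31 against parental array 1 alone. SSA3 changed by -0.56 ± 0.19, and by -0.25 without parental array 2 (limma adjusted p = 0.43), where it was not called. Co-chaperones and small heat shock proteins had 2 of 18 higher, HSP31 (0.74 ± 0.10) and SBA1 (0.22 ± 0.05), and 3 lower, among them the Hsp70 partners YDJ1 (-0.46 ± 0.11) and FES1 (-0.61 ± 0.14). The calls of SBA1, YDJ1 and FES1 (-0.21) were lost without parental array 1.

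Oxidative stress genes had 8 of 29 higher and 1 lower, all called, a share near the 31.2% of all tested genes. Without parental array 1, 4 were called higher, against 10 with all arrays, and the median log2 change was 0.00, against 0.15. SRX1, sulfiredoxin, had 372, 401 and 429 in the homozygotes, against 193 and 250 in the parental arrays (0.86 ± 0.10), and GSH1, the first enzyme of glutathione synthesis, changed by 0.83 ± 0.12 (0.53 against parental array 2 alone). Hypoxic genes had 6 of 22 higher and 2 lower, 5 and 1 of them called, a share near the 31.2% of all tested genes. With group weights 2 were called higher and 1 lower. SUT1, a sterol uptake regulator, was at 0.88 ± 0.14 and SUT2 at -0.94 ± 0.17. Of 19 trehalose and glycogen genes only GPH1, glycogen phosphorylase, was without overlap (0.49 ± 0.05). Seripauperin genes, a subtelomeric family of wall proteins with near-identical members, had 6 of 11 higher and 0 lower, 5 of them called, led by PAU4 (0.97 ± 0.16) from a shared probe set.

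In lipid metabolism the shares differed by list. Inositol and phospholipid synthesis had 8 of 20 higher and 1 lower, with CHO2, a phosphatidylethanolamine methyltransferase, at 0.39 ± 0.08 and CPT1, cholinephosphotransferase, at -0.61 ± 0.12, and 0 of these genes were called with group weights. The list median of 0.28 was 0.15 without parental array 1. Ergosterol synthesis had 4 of 27 in each direction, a share near the 31.2% of all tested genes, and 0 were called with group weights. Peroxisomal fatty acid oxidation had 8 of 20 lower and 1 higher, the 1 being FAA1, an acyl-CoA synthetase (0.52 ± 0.08). OAF1, the oleate-responsive activator, had 82.2, 100 and 111 in the homozygotes, against 213 and 232 in the parental arrays (-1.16 ± 0.10), and lies on chromosome I (YAL051W). ANT1, the peroxisomal ATP carrier, changed by -0.53 ± 0.11 and PXA1, a fatty acid importer, by -0.55 ± 0.10.

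Cytosolic ribosomal proteins had 29 higher and 13 lower of 128, a share near the 31.2% of all tested genes. Of these 16 and 6 were called, and the median was 0.05. Over the whole list 20 were called higher and 6 lower, against 10 and 18 after quantile normalization, where the median was 0.01. Group weights left 0 called. Ribosome biogenesis had 2 higher and 6 lower of 48, led by MAK16 (YAL025C, -0.86 ± 0.14). The proteasome had 4 higher and 2 lower of 32, RNA polymerase I had 0 higher and 1 lower of 15, nitrogen catabolite repression had 3 higher and 0 lower of 23, and histones had 1 lower of 10, HTA2 (-0.88 ± 0.14). Cyclins and cell cycle genes had 2 higher and 2 lower of 22, and CLN3 (YAL040C, on chromosome I), at -1.18 ± 0.08, had the widest gap of these. Aryl alcohol dehydrogenases had 0 of 3 without overlap. Apart from cytosolic ribosomal proteins, the lists in this paragraph had smaller shares without overlap than all tested genes.

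Among markers of other yeast cell states, mating and haploid-specific genes had 2 higher and 3 lower of 20 without overlap, where 12.5% of all tested genes were higher and 18.7% lower. STE2, the receptor of a-cells, had 69.8, 86.2 and 96.8 in the homozygotes, against 129 and 99.4 in the parental arrays, and STE18, the haploid-specific G protein gamma subunit, had 40.4, 43.4 and 53.7 in the homozygotes, against 33.8 and 32.7 in the parental arrays. STE2 was not called without parental array 1 (-0.22), nor STE18 without either parental array. Of the separated mating genes, 2 higher (STE18 and HMRA1) and 1 lower (STE2) were called, and 0 of the list were called with group weights. HMRA1 changed by 0.45, by 0.46 against parental array 2 alone and by 0.43 against parental array 1 alone. Meiosis and sporulation genes had 2 higher and 1 lower of 28. DIT1, of the spore wall, had 125, 139 and 168 in the homozygotes, against 57.8 and 70.2 in the parental arrays (1.15 ± 0.12), and SPO22 (YIL073C), a meiotic protein, had 19.1, 31.1 and 38.6 in the homozygotes, against 66.3 and 113 in the parental arrays (-1.51 ± 0.23, limma adjusted p = 0.00047). The SPO22 signal of homozygote 3, at 19.1, was below its array's background, so the size of the fall is uncertain.

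A pair of the widest falls belonged to none of the lists used here. SDD1 (YEL057C) had 47.0, 51.4 and 56.1 in the homozygotes, against 123 and 126 in the parental arrays, with close values within each group and a gap of 1.13 (-1.28 ± 0.09, limma adjusted p = 2.0e-06). FCY21 (YER060W), a relative of the purine-cytosine permease, had 46.9, 54.2 and 58.3 in the homozygotes, against 104 and 106 in the parental arrays, also without overlap (-0.95 ± 0.10, limma adjusted p = 1.4e-05). Of the genes without overlap, 191 of the 669 higher and 138 of the 1003 lower belonged to a list used here. These counts leave out the GPI anchor and glycine cleavage lists, which were drawn up after the values were seen.

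Genes with YAL and YAR names were lower almost throughout. Of the 81 tested, 66 were lower without overlap and called, with a median gap of 0.655, against 0.135 for the 937 lower genes of other names, and a median log2 change of -0.85, against -0.40. In each homozygote the median over the 81 genes lay 0.75 to 0.80 below the parental mean on the log2 scale, and the median of the other genes at most 0.06 below. The parental arrays were at 0.00 in size on the same measure. On the other 15 chromosomes the share of lower genes lay between 7.59% and 21.5%, that of higher genes between 8.37% and 20.9%, and the median log2 change between -0.07 and 0.02. The left arm had 54 of 61 genes lower (median -0.83) and the right arm 12 of 20 (median -0.69). With group weights 57 of the 66 were called lower, and 22 names in a fit with a replicate block.

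**Figure D4:**
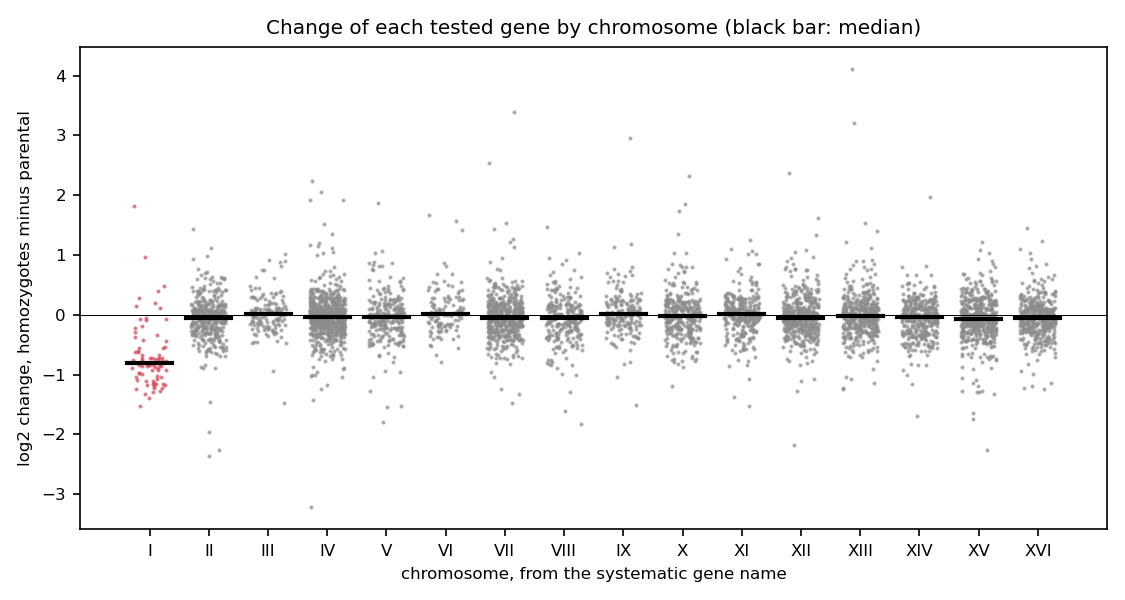
Log2 change of each of the 5352 tested genes (y axis, homozygotes minus parental) by the chromosome its systematic name gives (x axis); black bars are medians. Chromosome I, in red, has a median of -0.81, and the medians of the other 15 chromosomes lie between -0.07 and 0.02.

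The widest gaps among these names were near 1. CLN3 (YAL040C), the G1 cyclin that sets cell size at start, had 517, 572 and 618 in the homozygotes, against 1249 and 1324 in the parental arrays, a gap of 1.01 (-1.18 ± 0.08, limma adjusted p = 9.6e-07). CNE1 (YAL058W), the calnexin homologue, had 82.2, 101 and 105 in the homozygotes, against 224 and 251 in the parental arrays (-1.29 ± 0.11, limma adjusted p = 4.4e-06). LTE1 (YAL024C), of mitotic exit, had 21.7, 28.8 and 34.9 in the homozygotes, against 89.8 and 76.0 in the parental arrays (-1.52 ± 0.17, limma adjusted p = 2.8e-05), with the homozygotes near background. FUN26 (YAL022C), a nucleoside transporter, and YAL064W-B changed by -1.32 ± 0.10 and -1.27 ± 0.12. YAT1 (YAR035W), a carnitine acetyltransferase, had 82.6, 88.0 and 96.7 in the homozygotes, against 185 and 240 in the parental arrays (-1.25 ± 0.10). In these 6 genes the homozygotes differed among themselves by less than the gap.

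The 15 tested names that were not lower were not of one kind. CDC19, pyruvate kinase and among the brightest genes, had 7882, 8416 and 8950 in the homozygotes, against 8791 and 9041 in the parental arrays, and overlapped (-0.09 ± 0.04). The only 2 higher without overlap were YAR009C and YAR010C, Ty1 retrotransposon reading frames whose shared probe sets also read copies elsewhere in the genome. YAR009C had 116, 167 and 513 in the homozygotes, against 43.8 and 64.3 in the parental arrays, and YAR010C had 1743, 2026 and 2535 in the homozygotes, against 723 and 1517 in the parental arrays. Their log2 changes were 1.82 ± 0.42 and 0.96 ± 0.20, and neither was called without parental array 1 (1.55 and 0.43).

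Separation by the sign of the gap alone takes in very small differences. AIM46 was the higher gene with the narrowest gap, at 1607, 1744 and 1900 in the homozygotes, against 1560 and 1607 in the parental arrays, and RPS22B the lower one, at 2245, 2570 and 2658 in the homozygotes, against 2659 and 2777 in the parental arrays. Neither was called. RPS22A and YJL070C overlapped by a similarly small amount. At the other end, the genes with the largest distance between the parental arrays among those without overlap were OPI10, ARN2, SSA4, OYE3 and BNA2. OPI10 had 156, 268 and 339 in the homozygotes, against 1502 and 426 in the parental arrays, and OYE3, an NADPH oxidoreductase, had 457, 567 and 810 in the homozygotes, against 123 and 358 in the parental arrays. Without parental array 1 the changes of OPI10 (-0.73), ARN2 (-0.77) and OYE3 (0.68) were not called. PIR3, OPT2 and SRY1 had the largest rises among called genes that overlapped, and for each of them parental array 2 lay within the range of the homozygotes and the call was lost without parental array 1.

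**Figure D5:**
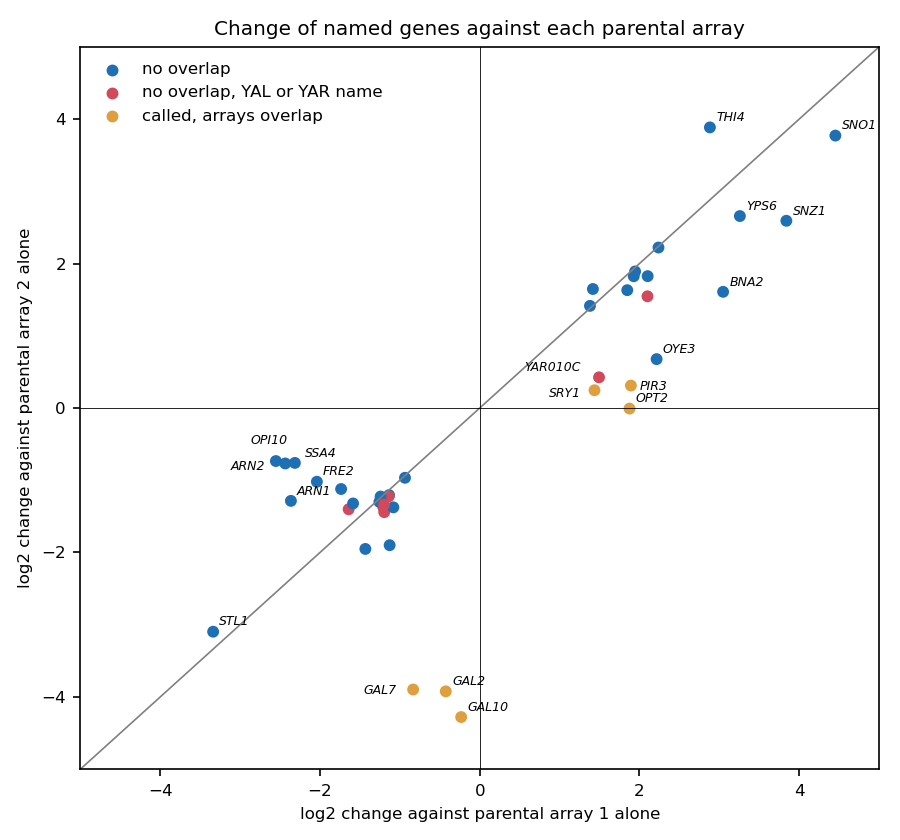
Log2 change of named genes against parental array 1 alone (x axis) and parental array 2 alone (y axis), with a line of equality. Genes without overlap have 1 sign on both axes by the way they were chosen; GAL2, GAL7 and GAL10 are much farther from 0 against parental array 2 than against array 1, and OPT2, PIR3 and SRY1 the reverse.

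The homozygotes were not equally far from the parental strain. Homozygote 2 was the nearest to the parental arrays in 148 of the 669 higher genes and 246 of the 1003 lower ones, and homozygote 1 in 125 and 243. Homozygote 5 was the nearest in 32 and 29. Signals at least 2-fold above the parental mean numbered 44 in homozygote 2 and 101 in homozygote 5, and those at least 2-fold below numbered 64 in homozygote 1 and 117 in homozygote 8. Each homozygote was measured once, so a difference between strains and a difference between cultures cannot be told apart.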

How the data were processed

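Total RNA of 12 cultures was measured on one-colour Affymetrix arrays. The deposited values are linear intensities, 1 per probe set and array, in 10928 probe sets; MAS5 is the tool named, per the submitters' processing notes. The scaling between arrays, and whether the cultures labelled as biological replicates were grown separately, are not given in the sources used here. Therefore p-values measure only the spread between these samples. Intensities were log2 transformed with no pseudocount and no further normalization. Probe sets were named by the platform annotation, with symbols updated from RefSeq's R64 table, which served for names only. A single S. cerevisiae gene was given for 5498 probe sets and a single S. pombe gene for 1746. For 47 genes with several probe sets a gene-specific one was preferred, then the brightest; 76 tested genes are read by probe sets shared with related sequences.

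The fit was limma 3.58.1 in R 4.3.3 with 1 mean per strain group over all 12 arrays, moderated variances with a trend, two-sided tests and Benjamini-Hochberg adjustment over 5352 genes at 0.05. The evolved arrays enter only the spread. Because the 8 homozygotes dominate it, the SEs understate the distance between the 2 parental arrays. Values after ± are SEs of log2 changes. Precision is limited by the number of arrays. The code was tested on simulated data.

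Genes and lists were chosen with earlier results of these data known. Named genes are the 12 widest gaps in each direction among called genes without overlap, 5 falls and up to 5 rises with YAL or YAR names, up to 4 such members of each list, XKS1, GRE3, TAL1, TKL1, ZWF1, GND1, the brightest HXT genes, the genes at the edge of overlap, called genes that overlap and genes whose parental arrays differ most. CYS3, HOM3, MET7 and CDC19, and which homozygote was lowest or highest, were picked out after their values were seen. The alternatives were group weights, centring, quantile normalization, other background filters, a replicate block and leaving out arrays; leaving out shared probe sets or homozygotes 5 and 6 was added after seeing the data. Figures were drawn with matplotlib 3.10.9.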

Additional observations from a re-analysis of the deposited data

Results flagged for a closer look

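In 8 of 102 checked groups of homozygotes 1 array lay apart from the other 7 by more than the 95% limit of Dixon's test, and chance flags about 1 in 20 groups. BNA2 was at 1578 in homozygote 6 and 1924 to 2252 in the others, and SPO22 at 19.1 in homozygote 3 and 27.7 to 38.6 in the others. Homozygote 1 was the high array for the galactose genes, with GAL7 at 192 (68.2 to 111 in the others), GAL10 at 220 (48.8 to 66.8) and GAL2 at 179 (103 to 128). It was also apart for the median of the galactose list, at -0.65, against -2.29 to -1.93 relative to the parental mean. Homozygote 8 was low for SRY1, at 198 (294 to 416 in the others), and high for the RNA polymerase I list, at 0.22 (-0.05 to 0.06).

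Of 3470 probe sets with no gene named here, 690 exceeded background, of which 57 were higher and 49 lower in the homozygotes without overlap. Those with a gap of at least 0.5 were 2 in number, 1 with a median of 932 (775 to 1070) in the homozygotes, against 306 and 406 in the parental arrays, and 1 with a median of 672 (573 to 756) in the homozygotes, against 369 and 303 in the parental arrays.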

How the results depend on the processing

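With group weights limma called 151 genes higher and 174 lower, and with a replicate block 27 and 37. The numbers of the homozygotes name strains and so do not pair them with parental arrays. Fitted to the homozygote and parental arrays alone, limma called 616 higher and 858 lower, and 1471 of these calls were among the 1669 reported. Leaving out 1 array at a time gave 613 to 745 calls higher and 759 to 973 lower. Without parental array 1, 983 of 1394 calls were among the 1669 reported, and without parental array 2, 1115 of 1677. Genes without overlap ranged from 681 to 1347 higher and from 1012 to 1877 lower, the largest counts when a parental array was left out (1347 and 1688 without array 1, 1322 and 1877 without array 2). A gap of at least 0.5 left 62 and 90, a gap of at least 1 left 17 and 10, and a gap at least as wide as the parental distance left 296 and 532. OPT2 turned to -0.0075 without parental array 1 (limma adjusted p = 0.973) and was 1.88 without parental array 2. Quantile normalization gave 759 higher and 816 lower calls, gene-specific probe sets alone 676 and 954, and the arrays without homozygotes 5 and 6 602 and 831; the last 2 settings were chosen after seeing the data. Of 194 called named genes, 31 stayed past the threshold in each of the other fits that tested them, at most 24, and 66 of the others missed it without a parental array. The fits behind the count of 31 include the replicate block, the only one in which LYS9, MET10, SAM2 and GCV1, among others, missed the threshold. The depth of signal limits DSS1, FRE5, LTE1 and SPO22, which lay near background in the homozygotes.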
